A study of Rattus norvegicus with 6 samples.

Results

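The insulin-like growth factor (IGF) system of the rat aortic wall was followed through 10 genes: the ligand genes Igf1 and Igf2, the receptor genes Igf1r and Igf2r, and the binding protein genes Igfbp2 to Igfbp7. Each was taken from the array row annotated with that symbol alone. All 10 had 1 such row, among 14324 genes measured. Rings were cut from the aorta of male Fisher 344 rats aged 1 to 2 months. They were either collected fresh (day 0, 3 arrays) or cultured in collagen for 1 day, with EBM medium free of serum (day 1, 3 arrays). Each array held RNA pooled from 4 to 6 rings or cultures. No group carried an engineered allele or an added agent. The labels name the arrays biological replicates. Whether a rat gave rings to more than 1 pool is not stated, so p-values reflect the spread among these pools alone, which may be technical.

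IGF-I and IGF-II are small secreted hormones related to insulin. Both act through the tyrosine kinase receptor encoded by Igf1r, which signals through insulin receptor substrates to the PI3K and AKT kinases and promotes growth and survival of vascular smooth muscle cells. The product of Igf2r has no kinase. It takes IGF-II to lysosomes and also carries enzymes tagged with mannose 6-phosphate. The binding proteins hold the ligands outside the cell, and proteases that cut them release the ligands.

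Values are log2 expression values as deposited, and a change is the day 1 mean minus the day 0 mean, with its standard error after ±. Array medians lay between 5.87 and 5.95. Pearson correlations across all 27342 rows were 0.996 to 0.997 for arrays of the same day and 0.969 to 0.973 for arrays of different days. A gene rose or fell where limma's two-sided test gave an adjusted p under 0.05, with Benjamini-Hochberg adjustment over all genes. By this rule 48.3% of all genes changed, 27.6% upward and 20.7% downward. The arrays of the groups did not overlap in 56.9% of genes. Since each array row has its own probes, levels are compared between groups for 1 gene and not between genes. RNA came from whole rings, so fewer cells of a type and less RNA per cell cannot be told apart.

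Sequences upstream of the 2 members that rose, Igf1r by only 0.33, and of the 2 with the largest falls are shown first. They come first because the members differed widely in this feature. The windows of the other members are not printed. The windows come from RefSeq (build GRCr8) and run from 250 bases before to 50 bases after an annotated start. All 10 genes had a window, and Igf2 had 2. The CG dinucleotides are in capitals, and each sequence reads 5′ to 3′ along its gene. Igfbp5 lies on the minus strand (chr9:81914138-81914437), Igf1 on the plus strand (chr7:24172282-24172581), Igf1r on the plus strand (chr1:130959747-130960046) and Igfbp3 on the minus strand (chr14:86277895-86278194).
Igfbp5: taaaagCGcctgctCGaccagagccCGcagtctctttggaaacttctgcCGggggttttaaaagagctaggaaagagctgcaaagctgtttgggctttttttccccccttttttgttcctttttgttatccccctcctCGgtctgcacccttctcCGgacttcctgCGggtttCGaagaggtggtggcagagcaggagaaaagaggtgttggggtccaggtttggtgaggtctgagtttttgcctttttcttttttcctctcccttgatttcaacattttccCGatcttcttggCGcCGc
Igf1: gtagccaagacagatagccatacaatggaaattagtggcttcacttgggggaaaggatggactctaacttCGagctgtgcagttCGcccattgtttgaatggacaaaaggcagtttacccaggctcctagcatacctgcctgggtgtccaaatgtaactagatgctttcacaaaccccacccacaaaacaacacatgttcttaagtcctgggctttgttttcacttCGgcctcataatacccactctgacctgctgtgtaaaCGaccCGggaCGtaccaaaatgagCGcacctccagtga
Igf1r: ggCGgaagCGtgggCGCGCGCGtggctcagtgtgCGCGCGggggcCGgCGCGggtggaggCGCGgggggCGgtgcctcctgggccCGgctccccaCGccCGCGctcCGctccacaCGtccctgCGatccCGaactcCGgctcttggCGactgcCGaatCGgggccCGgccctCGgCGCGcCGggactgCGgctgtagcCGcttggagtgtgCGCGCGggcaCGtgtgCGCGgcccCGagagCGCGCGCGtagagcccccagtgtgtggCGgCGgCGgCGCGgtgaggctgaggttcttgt
Igfbp3: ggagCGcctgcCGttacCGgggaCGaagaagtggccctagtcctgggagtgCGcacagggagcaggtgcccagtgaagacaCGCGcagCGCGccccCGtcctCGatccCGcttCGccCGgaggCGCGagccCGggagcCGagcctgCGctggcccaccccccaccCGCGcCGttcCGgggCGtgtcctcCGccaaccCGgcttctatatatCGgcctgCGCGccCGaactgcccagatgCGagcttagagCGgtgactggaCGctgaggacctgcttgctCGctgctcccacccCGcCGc

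The windows of Igf1r and Igfbp3, the members that rose, held 50 and 36 CG dinucleotides. Of all 33469 windows, 0.729% held at least as many as Igf1r and 5.43% at least as many as Igfbp3. The windows of Igfbp5 and Igf1, the members with the largest falls, held 11 and 7, against a median of 7 over all windows. Among the other members the count went from 7 (Igfbp6 and one window of Igf2) to 32 (Igfbp7, which fell), so high counts were not limited to members that rose. The letters GGGCGG of the GC box, searched on both strands as all motifs here, stood in 6 of the 11 member windows and in 33.1% of all windows. They were in windows of Igf1r, Igf2, Igf2r, Igfbp2 and Igfbp7. The TATA box letters TATAAA were found in the window of Igfbp4 alone among members (14.2% of all windows). The E-box letters CACGTG were in those of Igf1r, Igf2r and Igfbp2 (6.42% of all windows), and the FOXO letters TGTTTAC in that of Igfbp6 (3.78%). AP-1 letters (TGANTCA) and CCAAT letters were in 0 member windows, and in 7.33% and 37.5% of all windows. These matches describe the letters only.

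After 1 day of culture both ligand genes were lower, the receptor genes moved in opposite directions, and 5 of 6 binding protein genes were lower. Igfbp3 was the exception, with a 4.16-fold rise. In all, 10 of 10 members passed the threshold (48.3% of all genes), 2 upward and 8 downward, and the groups did not overlap in any of the 10 (56.9% of all genes). Changes of at least 2-fold past the threshold were seen in 3 members, against 8.24% of all genes. The median absolute change was 0.71 over the members and 0.23 over all genes. Of the members, 9 had a mean level at or above the median of all genes. The part of the level in this difference was not tested.

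**Figure D1:**
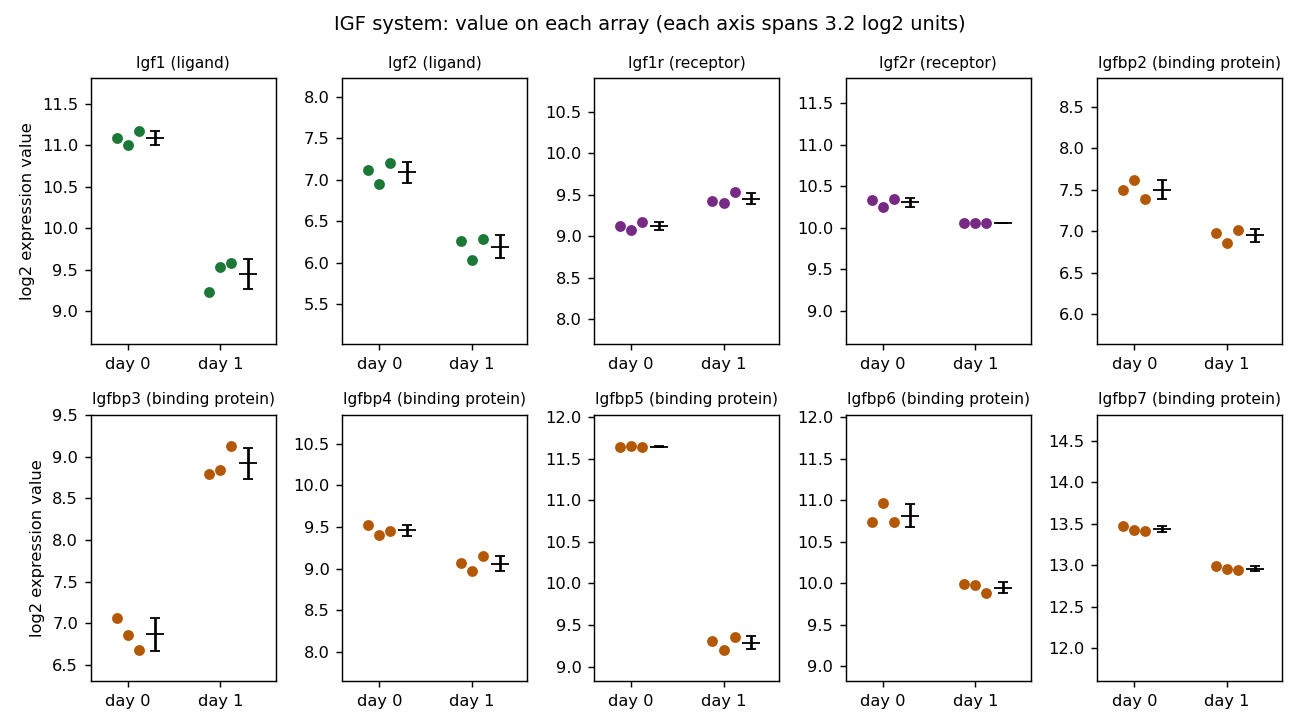
Log2 expression value (vertical axis) of each member on each of the 6 arrays, by day (horizontal axis). Points are single arrays, and the bar beside them gives the mean with the SD of 3 arrays. Every vertical axis spans the same number of log2 units. Igfbp5 drops from about 11.65 to 9.29 and Igfbp3 climbs from about 6.86 to 8.92, and in no panel do the days overlap.

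Among the ligands, Igf1, the main growth and survival factor of the family after birth, stood at 11.09, 11.00 and 11.17 on the day 0 arrays. On the day 1 arrays it stood at 9.24, 9.53 and 9.58. Every day 1 array lay below every day 0 array, with a gap of 1.42 between the groups. Igf1 fell by 1.64 ± 0.10, a 3.12-fold drop (limma, adjusted p = 5.76e-06, n = 3 per group), and was the 254th largest fall of all genes. Igf2, the imprinted fetal growth factor gene, was at 7.11, 6.95 and 7.20 on day 0 and at 6.26, 6.04 and 6.29 on day 1. The groups were again apart, by 0.66. Igf2 fell by 0.90 ± 0.09, or 1.86-fold (limma, adjusted p = 1.20e-04, n = 3 per group).

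On these arrays the log2 fall was smaller for Igf2 than for Igf1. Each row has its own probes, and Igf2 ended near the array medians (day 1 mean 6.19). Whether the transcripts were lost unequally was therefore not tested. The log2 difference Igf2 minus Igf1 on each array went from between -4.05 and -3.97 on day 0 to between -3.50 and -2.98 on day 1. It shifted by 0.74 ± 0.15 (95% confidence interval 0.32 to 1.17). The groups did not overlap, and the exact two-sided permutation test gave p = 0.1, the smallest that 3 arrays against 3 allow.

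The receptor genes moved in opposite directions, both by little. Igf1r, the signalling receptor gene, was at 9.12, 9.07 and 9.18 on day 0 and at 9.42, 9.40 and 9.53 on day 1. All day 1 arrays were above all day 0 arrays, though only by 0.23. Igf1r rose by 0.33 ± 0.06, or 1.25-fold (limma, adjusted p = 0.00357, n = 3 per group). Igf2r, the clearing and sorting receptor gene, was at 10.34, 10.25 and 10.34 on day 0 and at 10.06, 10.06 and 10.05 on day 1. The day 1 arrays were lower and lay within a narrow band. Igf2r fell by 0.25 ± 0.06, or 1.19-fold (limma, adjusted p = 0.00811, n = 3 per group).

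The difference Igf1r minus Igf2r on each array lay between -1.22 and -1.16 on day 0 and between -0.66 and -0.52 on day 1, a shift of 0.58 ± 0.04 (95% confidence interval 0.46 to 0.70). The groups did not overlap (exact two-sided permutation p = 0.1, the smallest possible). Igf1 relative to Igf1r went the other way. The difference Igf1 minus Igf1r was between 1.93 and 2.00 on day 0 and between -0.18 and 0.13 on day 1, a shift of -1.97 ± 0.10 (95% confidence interval -2.23 to -1.70; exact two-sided permutation p = 0.1).

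Of the binding proteins, Igfbp3 alone rose. Its product is the main carrier of IGFs in blood, where it forms a complex with the acid-labile subunit. Igfbp3 was at 7.07, 6.86 and 6.67 on day 0 and at 8.79, 8.84 and 9.14 on day 1. The lowest day 1 array was 1.73 above the highest day 0 array. The rise was 2.06 ± 0.13 (limma, adjusted p = 5.66e-06, n = 3 per group), the 104th largest of all genes.

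Igfbp5, whose product binds the extracellular matrix, had the largest fall of the members. It stood at 11.64, 11.66 and 11.65 on day 0 and at 9.31, 9.20 and 9.36 on day 1. The day 0 arrays were almost equal (SD 0.0080) and the gap to day 1 was 2.28. Igfbp5 fell by 2.36 ± 0.06, or 5.13-fold (limma, adjusted p = 1.24e-07, n = 3 per group), the 97th largest fall of all genes. Igfbp2 is the direct neighbour of Igfbp5 in the RefSeq gene table, on the other strand, and its product can bind integrins. It was at 7.50, 7.62 and 7.39 on day 0 and at 6.98, 6.86 and 7.02 on day 1. Igfbp2 fell by 0.55 ± 0.08, or 1.46-fold (limma, adjusted p = 7.06e-04, n = 3 per group), so both neighbours were lower. Their changes differed by 1.81 ± 0.06 (95% confidence interval of Igfbp5 minus Igfbp2, -1.99 to -1.64; exact two-sided permutation p = 0.1).

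Igfbp6, whose product prefers IGF-II, was at 10.73, 10.97 and 10.74 on day 0 and at 9.997, 9.98 and 9.88 on day 1. Replicate 2 was the highest day 0 array, and all day 1 arrays were lower by at least 0.74. Igfbp6 fell by 0.87 ± 0.08, or 1.82-fold (limma, adjusted p = 6.46e-05, n = 3 per group). Igfbp7, whose product is a vessel wall protein with weak IGF binding, was at 13.47, 13.42 and 13.41 on day 0 and at 12.99, 12.95 and 12.94 on day 1. Both groups were tight. Igfbp7 fell by 0.47 ± 0.06, or 1.39-fold (limma, adjusted p = 2.44e-04, n = 3 per group). Igfbp4, whose product restrains IGF action until it is cut, was at 9.53, 9.40 and 9.45 on day 0 and at 9.07, 8.97 and 9.15 on day 1. The groups were 0.25 apart. Igfbp4 fell by 0.40 ± 0.07, or 1.32-fold (limma, adjusted p = 0.00210, n = 3 per group).

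**Figure D2:**
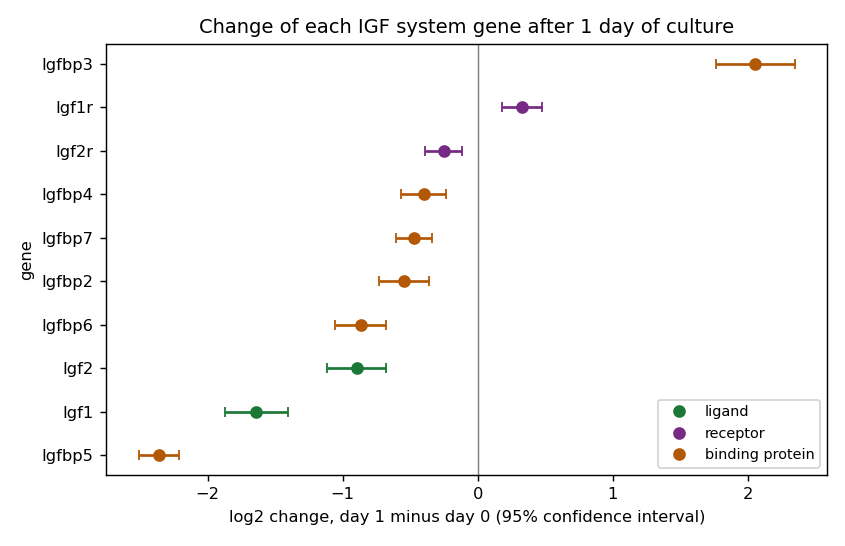
Log2 change from day 0 to day 1 (horizontal axis) of each member (vertical axis), ordered by size, with its 95% confidence interval from limma; colours give ligands, receptors and binding proteins. The 8 members below zero run from Igfbp5 at -2.36 to Igf2r at -0.25, and Igf1r at 0.33 and Igfbp3 at 2.06 stand above zero.

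The order of changes went from Igfbp5 through Igf1, Igf2, Igfbp6, Igfbp2, Igfbp7, Igfbp4, Igf2r and Igf1r to Igfbp3. It came from these same arrays, so the sign of each difference between neighbours was fixed by the sorting. The 95% intervals were not adjusted for the number of pairs. Pairs were compared by their difference within each array. The interval excluded 0 between Igfbp5 and Igf1 (0.72 ± 0.13), Igf1 and Igf2, Igfbp6 and Igfbp2 (0.32 ± 0.08), Igf2r and Igf1r, and Igf1r and Igfbp3 (1.73 ± 0.15). It included 0 between Igf2 and Igfbp6 (95% confidence interval -0.47 to 0.53), Igfbp2 and Igfbp7 (-0.15 to 0.30), Igfbp7 and Igfbp4 (-0.09 to 0.24), and Igfbp4 and Igf2r (-0.02 to 0.31). Counting the pairs given above, 11 were compared. None could go below an exact p of 0.1, so no pair reached 0.05 before or after adjustment.

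The genes around the system were followed through 9 lists of 134 different genes, of which 112 were measured. Of these, 50 rose and 23 fell (27.6% and 20.7% of all genes). The median change of the 112 was 0.11, against -0.01 over all genes. All tests named are those of limma over all genes, with n = 3 per group.

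**Figure D3:**
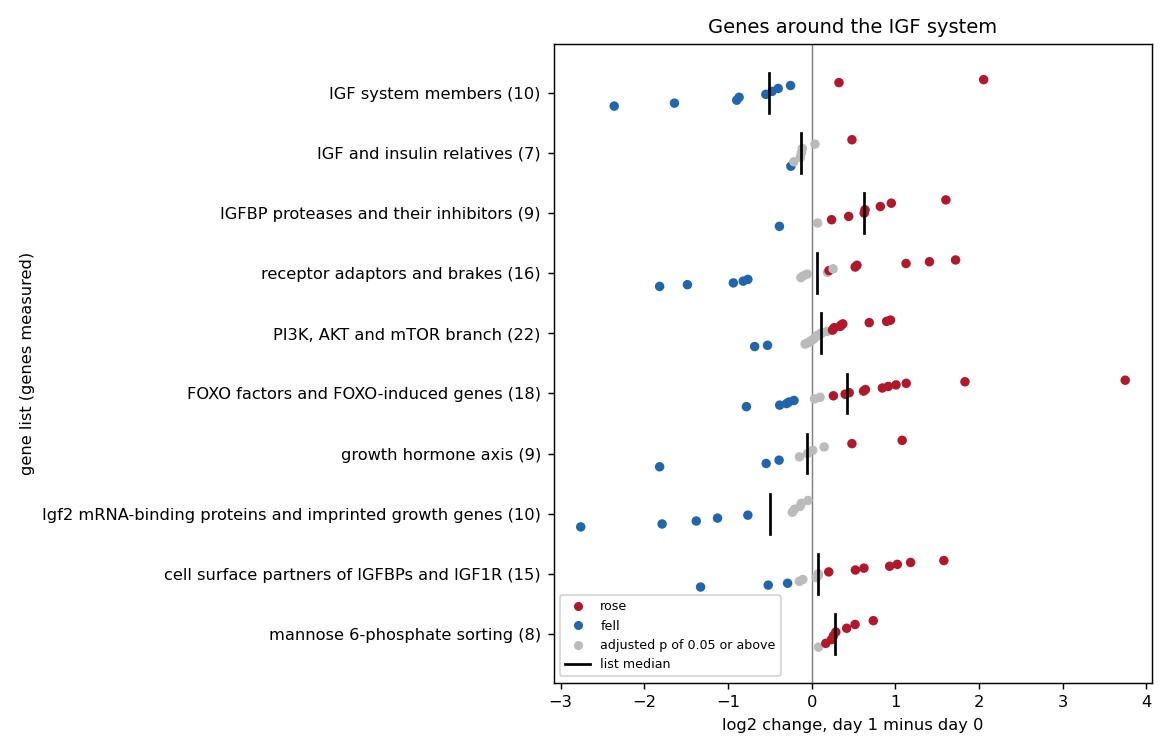
Log2 change from day 0 to day 1 (horizontal axis) of each measured gene of the IGF system and of 9 lists around it (vertical axis, number measured in brackets). Red points rose, blue points fell, grey points did not pass the adjusted p of 0.05, and black ticks are list medians. The list of proteases and their inhibitors lies to the right (median 0.63), and the list of imprinted genes to the left (median -0.50).

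Of 7 relatives of the system 1 rose and 1 fell (27.6% and 20.7% of all genes). Their median absolute change was 0.13, against 0.71 for the members. Apart from Insr the relatives were dim, with day 0 means from 4.30 (Insrr) to 5.56 (Igfals), under all array medians. The lowest day 0 mean of a member was 6.86 (Igfbp3). The part of the level in the smaller changes was not tested. The insulin receptor gene Insr, at 9.68, 9.50 and 9.60 on day 0, reached 10.10, 10.04 and 10.09 on day 1, a rise of 0.48 ± 0.07 (adjusted p = 5.35e-04). The insulin receptor-related receptor gene Insrr fell by 0.25 ± 0.07 (adjusted p = 0.0152), a call lost without day 1 replicate 3 (adjusted p = 0.0507), with quantile normalization (adjusted p = 0.0612) and with an intensity trend and robust prior (adjusted p = 0.0825). Igfbp1, the neighbour of Igfbp3 in the RefSeq gene table, was at 4.24, 4.33 and 4.51 on day 0 and at 4.28, 4.09 and 4.07 on day 1. Its groups overlapped, and its change of -0.21 ± 0.09 missed the threshold (adjusted p = 0.0964). It passed when day 1 replicate 1 was left out (adjusted p = 0.0485) and with median centring (adjusted p = 0.0399). Igfals, the gene of the acid-labile subunit that joins Igfbp3 in blood, was at -0.11 ± 0.07 (adjusted p = 0.249). The insulin genes Ins1 and Ins2 were at -0.13 ± 0.17 and -0.12 ± 0.11, and Igfbpl1 was at 0.04 ± 0.06, none past the threshold.

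Proteases that can cut binding proteins, and their inhibitors, were mostly higher. Of 9 measured genes 7 rose and 1 fell (27.6% and 20.7% of all genes), with a median of 0.63. Adam9, a membrane protease able to cut Igfbp5, went from 10.27, 10.16 and 10.26 to 11.81, 11.81 and 11.88, a rise of 1.61 ± 0.06 (adjusted p = 5.24e-07). Pappa, the secreted protease that cuts Igfbp4 and Igfbp5, went from 6.47, 6.17 and 6.12 to 6.91, 7.07 and 7.25. It rose by 0.82 ± 0.12 (adjusted p = 6.82e-04), with the spread among arrays wider than for Adam9. The stanniocalcin genes Stc1 and Stc2, whose products inhibit that protease, rose as well, by 0.44 ± 0.06 and 0.63 ± 0.07. The lysosomal protease gene Ctsd rose by 0.95 ± 0.06 and the matrix protease gene Adamts1 by 0.64 ± 0.07. The serine protease gene Htra1 rose by 0.24 ± 0.06 (adjusted p = 0.00925), a call lost with quantile normalization (0.12, adjusted p = 0.127). Adam28 was at 0.07 ± 0.06 (adjusted p = 0.360). Its row was dim, with a mean of 3.17 on day 0 and 3.24 on day 1. Klk4 was also under all array medians, with means of 5.365 and 4.98. The kallikrein gene Klk4 fell by 0.38 ± 0.11 (adjusted p = 0.0195). That call was lost when day 0 replicate 1 (adjusted p = 0.0598), day 0 replicate 2 (adjusted p = 0.0565), day 1 replicate 2 (adjusted p = 0.0665) or day 1 replicate 3 (adjusted p = 0.0689) was left out. It was also lost with quantile normalization (adjusted p = 0.0603).

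Adaptors and brakes of the receptors went both ways (median 0.07), with 6 of 16 higher and 5 lower (27.6% and 20.7% of all genes). Socs2, a feedback inhibitor of growth hormone signalling, went from 9.66, 9.62 and 9.52 to 7.89, 7.65 and 7.81. Socs2 fell by 1.82 ± 0.08 (adjusted p = 1.09e-06). Grb14, an adaptor that inhibits the insulin receptor, fell by 1.48 ± 0.09 (adjusted p = 4.38e-06). The cytokine feedback gene Socs3 rose by 1.72 ± 0.15 (adjusted p = 4.21e-05) and the insulin receptor adaptor gene Sh2b2 by 1.41 ± 0.11 (adjusted p = 1.71e-05). In the growth hormone list, which shares Socs2, 2 of 9 genes rose and 3 fell (27.6% and 20.7% of all genes). The kinase gene Jak2 rose by 1.08 ± 0.11 and the transcription factor gene Stat5a by 0.48 ± 0.07, and the prolactin receptor gene Prlr fell by 0.54 ± 0.11. Prlr was among the dimmest 25% of genes, with a mean of 3.87 on day 0 and 3.33 on day 1.

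In the PI3K, AKT and mTOR branch 9 of 22 genes rose, 2 fell and 11 did not pass. Over all genes 27.6% rose and 20.7% fell. Of the 22 genes, 0 rose or fell by as much as 2-fold. Their median absolute change was 0.22, close to the 0.23 over all genes. Inpp5d, a lipid phosphatase gene of blood cells, rose by 0.94 ± 0.07 (adjusted p = 2.00e-05). The translation repressor gene Eif4ebp1 rose by 0.90 ± 0.06 and the mTOR inhibitor gene Tsc1 by 0.69 ± 0.06. The regulatory subunit gene Pik3r3 fell by 0.68 ± 0.06 (adjusted p = 5.38e-05). With quantile normalization 6 rose and 3 fell.

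FOXO factors, which AKT holds out of the nucleus, and genes they induce numbered 18 (median 0.43). Of these 11 rose and 5 fell, against 27.6% and 20.7% of all genes. Gadd45a, a stress gene that p53 also induces, went from 8.16, 8.18 and 7.83 to 11.82, 11.81 and 11.79. Its rise of 3.75 ± 0.10 (adjusted p = 1.12e-07) was the largest of the list. The repressor gene Bcl6 rose by 1.83 ± 0.06, Klf15 by 1.13 ± 0.10 and the cyclin gene Ccng2 by 1.01 ± 0.06. Among those that fell were the factor genes Foxo1 (-0.27 ± 0.08, adjusted p = 0.0302) and Foxo3 (-0.30 ± 0.06, adjusted p = 0.00294). The stress gene Sesn1 fell as well (-0.78 ± 0.06, adjusted p = 2.75e-05). Foxo1, Foxo3 and Sesn1 were picked here after their values were seen. Without day 0 replicate 1, or without day 1 replicate 1, 3 genes of the list fell in place of 5. Which genes lost the call was not followed. Other pathways control these genes as well, so the counts describe transcript levels and not FOXO activity.

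Imprinted growth genes and the Igf2 mRNA-binding protein gene Igf2bp1 numbered 10 (median -0.50). Of these 5 fell and 0 rose, against 20.7% and 27.6% of all genes. Mest went from 8.91, 8.63 and 8.90 to 6.06, 5.997 and 6.10. It fell by 2.76 ± 0.09 (adjusted p = 2.40e-07). H19 is a noncoding RNA gene that shares an imprinted domain with Igf2. It went from 7.65, 7.81 and 7.72 to 6.05, 5.92 and 5.84. H19 fell by 1.79 ± 0.08 (adjusted p = 9.49e-07), in the same direction as Igf2. The transcription factor gene Plagl1 fell by 1.38 ± 0.08 and the G protein subunit gene Gnas by 1.12 ± 0.08. The row of Gnas had a mean of 6.31 on day 0 and 5.18 on day 1, the latter under all array medians. With quantile normalization 7 of the 10 fell, and with median centring 8.

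Cell surface partners of the binding proteins and of the IGF-I receptor numbered 15 (median 0.08). Of these 7 rose and 3 fell, against 27.6% and 20.7% of all genes. The fibronectin receptor chain gene Itga5 rose by 1.58 ± 0.06 (adjusted p = 4.50e-07). Sirpa, a membrane protein gene linked to IGF-I signalling in smooth muscle, rose by 1.18 ± 0.08, and Lrp1, an endocytic receptor gene, by 1.02 ± 0.06. The caveolin gene Cav1 fell by 1.33 ± 0.10 (adjusted p = 1.95e-05). Mannose 6-phosphate sorting genes, partners of Igf2r in lysosomal transport, were higher in 7 of 8 cases past the threshold, a count that rested on single arrays and on the scaling. It was 3 of 8 without day 0 replicate 2 or without day 1 replicate 1, and 4 of 8 without day 0 replicate 3, with quantile normalization or with median centring (27.6% of all genes rose). The retromer gene Vps26a rose by 0.74 ± 0.06, M6pr, the other mannose 6-phosphate receptor gene, by 0.52 ± 0.06 (adjusted p = 1.38e-04) and Nagpa by 0.42 ± 0.08. Gnptg was at 0.29 ± 0.09 (adjusted p = 0.0345), a call that ended with either scaling (adjusted p = 0.169 with quantile normalization, 0.0692 with median centring), with every row as a feature (adjusted p = 0.0517), and without any 1 array (adjusted p = 0.0668 to 0.0978) other than day 1 replicate 3.

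Markers of cell types in and outside the wall moved over the same day, in which 27.6% of all genes rose and 20.7% fell. All 9 measured smooth muscle markers fell. Their summed level (log2 of the summed linear values) was 15.21 to 15.26 on day 0 and 11.76 to 11.94 on day 1. Of 9 fibroblast markers 3 rose and 6 fell, with a summed level of 15.57 to 15.62 and then 15.34 to 15.39. Of 7 endothelial markers 5 rose and 2 fell (11.29 to 11.47, then 11.42 to 11.51). Of 10 macrophage markers 3 rose, 5 with an intensity trend and robust prior, and 3 fell (11.91 to 12.01, then 12.29 to 12.43). White adipocyte markers fell in 8 of 9 cases (9.97 to 10.16, then 9.02 to 9.22) and brown adipocyte markers in 4 of 5 (9.05 to 9.27, then 7.02 to 7.20). Of 5 skeletal muscle markers 2 fell and 1 rose (11.28 to 11.34, then 8.35 to 8.51). The 2 that fell were the brightest, Acta1 (mean 10.92, then 6.76) and Ckm (8.83, then 6.79), which weigh most in the sum. Pvalb rose (4.41, then 4.82), and Tnnt3 (6.24, then 5.95) and Tnni2 (5.24, then 5.24) did not pass. Whether the values of Acta1 and Ckm came from skeletal muscle was not tested. The one rise was lost, and 2 or 3 fell, without day 0 replicate 1, day 0 replicate 3, day 1 replicate 1 or day 1 replicate 2. Of 6 hepatocyte markers, which would mark tissue outside the aorta, 2 fell (7.20 to 7.29, then 7.01 to 7.28). That count was 0 with quantile normalization, with the replicate block and without day 1 replicate 2, and 1 with any other array left out. The table has no detection calls, so no marker can be read as absent. Igf1, Igf2, Igf2r and the 5 binding protein genes that fell moved in the direction of the smooth muscle and most adipocyte and fibroblast markers. Of the fibroblast markers 3 of 9, and of the endothelial markers 5 of 7, moved the other way. Among the skeletal muscle markers, 2 of 5 fell past the threshold. The part of these cell types in the result was not tested.

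**Figure D4:**
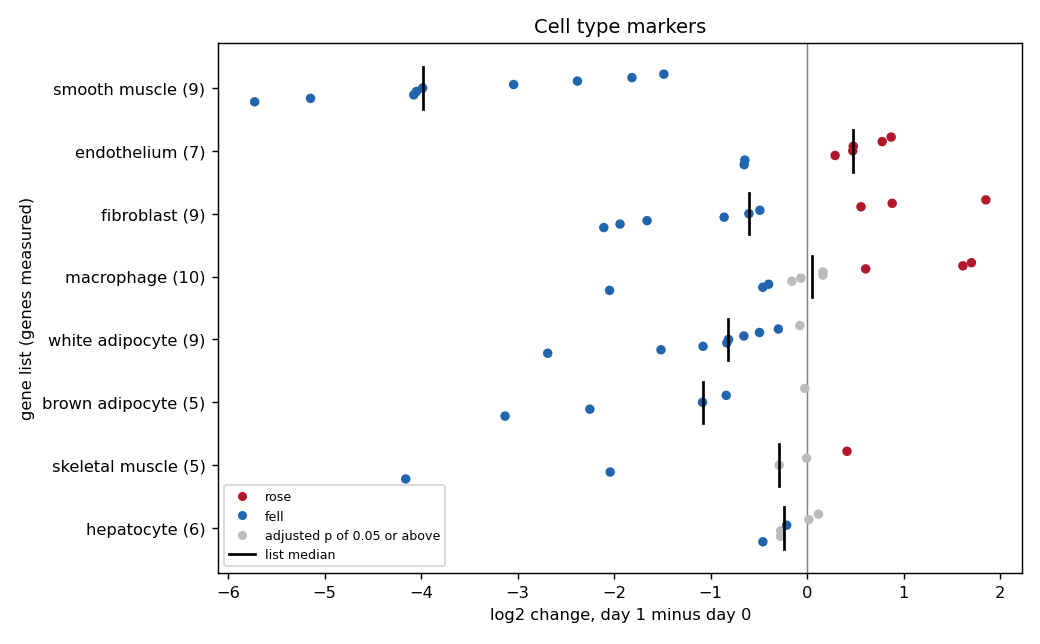
Log2 change from day 0 to day 1 (horizontal axis) of the measured markers of 8 cell types (vertical axis, number measured in brackets). Colours are red for genes that rose, blue for those that fell and grey for those that did not pass, and black ticks are list medians. All 9 smooth muscle markers lie below zero with a median of -3.98, while fibroblast and macrophage markers lie on both sides of zero.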

How the data were processed

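Per the labels' protocols, 200 ng of total RNA from each pool was labelled with biotin for an Affymetrix whole-transcript array. The authors deposited log2 expression values, 1 per row and array. That they are log2 was inferred from their range (1.32 to 14.16). The submitters' processing notes name limma. Background handling, normalization and summarisation were not given in the sources used here.

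Rows were named through the platform annotation, with symbols updated against RefSeq (GRCr8) by gene ID (15067 rows) or accession (6), the other 24 keeping the annotated symbol. The 323 rows with more than 1 symbol and the 11922 without any entered only the fit of every row. The row with the highest mean was kept for each of 14324 genes. The days were compared over all genes by lmFit and eBayes of limma 3.58.1 (R 4.3.3), without filter or block, and the fit was tested on simulated data. Pair intervals use the within-array difference and the pooled spread (4 degrees of freedom). Tables and figures were made with pandas 2.3.3, matplotlib 3.10.9 and numpy 2.4.6 under Python 3.11.15.

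The members and lists were chosen with earlier results of these data known. The text names every member, all measured relatives, proteases with their inhibitors, and skeletal muscle markers. Of each other list around the system it names the 4 genes with the largest changes among those that passed and had groups apart. Foxo1, Foxo3, Sesn1 and Igf2bp1 are named besides, and other listed genes stand only in counts. Motifs and CG counts were chosen after values were seen. Alternatives covered scaling (quantile, median), dim genes (2 filters), the row used (mean, most variable, every row as a feature), the model (array weights, trend and robust prior, treat against 1.5-fold, replicate block) and each array left out.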

Additional observations from a re-analysis of the deposited data

How the results depend on the processing

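All members kept their direction under every alternative in which they were tested. Igf2 was not tested without genes under the median mean, where 9 of 9 members passed. Against a 1.5-fold change (treat) 1550 genes, 4 members and 25 pathway list genes passed, in place of 6915, 10 and 73. The members that no longer passed were Igf2 (-0.90, adjusted p = 0.0545), Igf1r (0.33), Igf2r (-0.25), Igfbp2 (-0.55), Igfbp4 (-0.40) and Igfbp7 (-0.47), the last 5 at an adjusted p of 1; treat asks for more than a nonzero change. Under the other alternatives each tested member passed. Igf1r ranged from 0.22 (quantile normalization) to 0.35 and Igf2r from -0.32 to -0.24. With the replicate block 6686 genes, 10 members and 71 pathway list genes passed, and the block changed no call of a member. Same-numbered arrays did not deviate together (correlations of deviations 0.01 to 0.04, against -0.05 to 0.04 for other numbers), and not every array correlated best with its own number, so the numbers were not taken as pairs. For the named genes around the system, 680 of their values kept direction and side of the threshold, 33 lost the call and 2 gained it. The number of arrays limits the precision.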

Other observations

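The CG content of promoter windows was set against the change over all genes, a comparison added after the members' windows had been seen. A window was at hand for 11825 of the genes tested, and the highest count was taken where a gene had several. Of 4163 genes with under 10 CG dinucleotides, 10.5% rose and 19.9% fell. Of 2075 genes with 30 or more, 35.6% rose and 22.4% fell. Classes between them were close to the latter: 36.3% of 2659 genes with 10 to 19 rose and 19.9% fell, and 40.9% of 2928 genes with 20 to 29 rose and 19.2% fell. Genes with under 10 were also dimmer, with a median level of 4.63 against 8.07 for those with 30 or more, and the part of the level in these shares was not tested. Igf1 and Igfbp6, both with under 10, fell. Igfbp5 (11), Igf2 (19 in its higher window), Igfbp2 (20) and Igfbp4 (27), in the classes between, fell too. Igf1r, Igf2r, Igfbp3 and Igfbp7, all with 30 or more, included the 2 members that rose and 2 that fell.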
